A study of Homo sapiens with 6 samples.

Results

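The 40 genes described here carry out or feed the ATF4 stress programme and the unfolded protein response. They are the rows of the normalized count table whose symbol equals 1 of 40 listed names, out of 20347 symbols in the table, and all 40 were found. RNA-seq was made from PaTu8988t, an established human pancreatic ductal adenocarcinoma (PDAC) line grown in high-glucose medium with serum. Its 3 control libraries come from cells given an unspecific CRISPR guide, and its 3 *SAMD1* KO libraries from cells given *SAMD1* guides. SAMD1 is a protein that binds unmethylated CpG islands. Both groups carry the same lentiviral Cas9 vector and were selected with puromycin, and the labels name no stress agent. Each KO library is 1 independent single-cell clone, so a difference between clones may be a property of a clone rather than of the knockout. Nothing in the sources says that the control replicates are separate clones, so their spread may be technical.

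When unfolded proteins collect in the endoplasmic reticulum (ER), the sensors PERK (*EIF2AK3*), IRE1 (*ERN1*) and ATF6 respond. PERK and 3 other kinases, which sense amino acid shortage, double-stranded RNA or heme shortage, phosphorylate the initiation factor eIF2alpha. General translation then slows while the mRNA of *ATF4* is translated more, and ATF4 with CHOP (*DDIT3*) and C/EBP partners switches on amino acid synthesis, amino acid uptake, tRNA charging and, under lasting stress, pro-apoptotic genes. IRE1 splices the mRNA of *XBP1*, and ATF6 is cut in the Golgi, and both factors switch on ER chaperones and ER-associated degradation. ATF4 is controlled largely at translation, ATF6 by cleavage and XBP1 by splicing. Gene counts show none of these steps. *ATF4* and the genes under it, 25 in all, are called the ATF4 branch below, and the 15 sensors, chaperones and degradation genes the ER branch.

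Promoters known to answer each branch carry short motifs. The members that hold one upstream of a RefSeq start are shown because the results below are read along these 2 branches. Gene positions given below are GENCODE spans, which can begin before that start, so the *ASNS* motif lies inside its span. RefSeq promoter windows (GRCh38.p14, 250 bases before to 50 after a start) matched 34 of the 40 genes, some with several starts. The 6 genes without a window are all in the ATF4 branch and include *NUPR1*, *ALDH1L2* and *SLC7A11*. The C/EBP-ATF response element was searched as TGATGNAA on both strands, and the ER stress response element as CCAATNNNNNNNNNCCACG on both strands. The first stood in windows of 7 members, 6 of 19 in the ATF4 branch and 1 of 15 in the ER branch, and in 3.62% of all 35116 windows. The second stood in windows of 4 members, 0 of 19 in the ATF4 branch and 4 of 15 in the ER branch, and in 0.0769% of all windows. Members were counted by gene, over any of their windows, while the shares of all are by window, so they are unlike measures. In the sequences, 30 bases each on the gene's strand, capitals mark the motif's fixed letters. The first 5 hold the C/EBP-ATF response element (*CHAC1*, *AARS1* and *HERPUD1* in reverse complement) and the other 4 the ER stress response element (*CRELD2* in reverse complement).
ASNS, chr7:97872458-97872487, minus strand: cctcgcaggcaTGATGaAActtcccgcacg
CHAC1, chr15:40953251-40953280, plus strand: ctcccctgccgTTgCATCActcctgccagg
CEBPG, chr19:33374060-33374089, plus strand: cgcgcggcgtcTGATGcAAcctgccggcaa
AARS1, chr16:70289675-70289704, minus strand: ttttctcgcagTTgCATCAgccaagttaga
HERPUD1, chr16:56931955-56931984, plus strand: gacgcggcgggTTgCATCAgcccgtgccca
HSPA5, chr9:125241385-125241414, minus strand: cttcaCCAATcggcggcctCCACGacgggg
HSP90B1, chr12:103930211-103930240, plus strand: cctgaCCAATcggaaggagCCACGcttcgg
XBP1, chr22:28800597-28800626, minus strand: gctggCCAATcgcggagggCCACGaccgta
CRELD2, chr22:49918549-49918578, plus strand: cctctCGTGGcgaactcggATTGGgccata
*HSP90B1* holds the ER motif at a second place, in reverse complement, and *SLC3A2* and *SLC7A1* hold the C/EBP-ATF motif after a RefSeq start. A match is a description of these letters, and binding was not measured here.

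Values are normalized counts, that is reads per gene divided by 1 size factor per library. They are relative to the rest of the library, so fewer cells of a type and less RNA per cell cannot be told apart. Libraries held 35589477 to 45172216 reads. The libraries labelled *SAMD1* KO replicate 1, 2 and 3 are called clones 1, 2 and 3 here. The *SAMD1* transcript was at 874, 1082 and 825 in them and at 2231 to 2382 in the controls. Among epithelial markers, *KRT8* and *KRT18* were high in all 6 libraries, *KRT19* was listed at 0 in all 6 and *CDH1* at 24 to 45.8. *KRT7* was at 26.4 to 34.3 in the controls and at 78.1, 90.7 and 83.6 in clones 1, 2 and 3. Over all 6 libraries *EPCAM* was at 422 to 626 and *MUC1* at 186 to 240. The summed epithelial list was 62919 to 66125 in the controls and 67895 to 108814 in the clones. The summed leukocyte list (4 genes, almost all of it *CD68*, with *CD3E* at 0) was 356 to 376 in the controls and 246 to 328 in the clones, the endothelial list (3 genes) 77.8 to 84.8 and 33.6 to 83.6, and the fibroblast list (5 genes, with *DCN* and *LUM* at 0) 164 to 165 and 148 to 443. Within these sums *COL3A1* was at 109 to 113 in the controls and 280, 398 and 130 in clones 1, 2 and 3, while *COL1A1* (48.9 to 52.7 against 15.3 to 41.5) and *CDH5* (29.4 to 37.7 against 2.97 to 17.3) were below the controls in every clone. The part of these shifts in the results was not tested.

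In *SAMD1* KO cells 5 genes of the ATF4 branch rose in the limma test, and no gene of either branch was called lower. The 5 were *ALDH1L2*, *VLDLR*, *ASNS*, *TRIB3* and *NUPR1*. Genes were compared on log2(normalized count + 1) with limma, and a gene was called when its log2 fold change exceeded 0.5 in size at p below 0.01 before adjustment. Of the 39 members that averaged at least 10 normalized counts, 5 (12.8%) were called higher, against 5.77% of the 12773 genes tested, and 0 lower, against 2.08%. Without *NUPR1*, whose control mean was under 10, 4 of 38 (10.5%) were higher. By edgeR 6 (6.1% of all genes) and by DESeq2 7 (6.5% of all genes) were higher. By both tools 0 were lower, against 247 and 265 of the 12773 genes. With 2.08% of all genes lower in limma, 0 of 39 is near that share. At an unadjusted limma p below 0.05, 18 members passed, 3 of them lower, against 29.6% of all genes in either direction. At a Benjamini-Hochberg adjusted p below 0.05 over all tested genes, 7 (17.9%) passed, all higher, against 13.0% of all genes in either direction. The groups did not overlap for 15 members (38.5%), against 37.8% of all genes. Of these, 13 had all clones above all controls (19.2% of all genes) and 2 all clones below (18.6%). The 7, the 13 and the counts by edgeR and DESeq2 include *NUPR1*, which had to be higher to be tested. The median log2 fold change was 0.26 over the 24 tested genes of the ATF4 branch and 0.13 over the 15 of the ER branch, beside −0.0059 over all tested genes. The estimate was above 0 for 34 of the 39 (87.2%), against 48.8% of all genes, and for most of them it did not pass either rule. Leaving out 1 library in turn moved the count of called members between 2 and 13. Without a control library it was 2 or 3 (4.45% to 4.69% of all genes were called higher). It was 3 without clone 2 (5.36% of all genes), 2 without clone 3 (5.98%) and 13 without clone 1 (6.75%). The median of the ATF4 branch was then 0.18 without clone 3 and 0.39 without clone 1, and that of the ER branch 0.063 and 0.25.

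**Figure D1:**
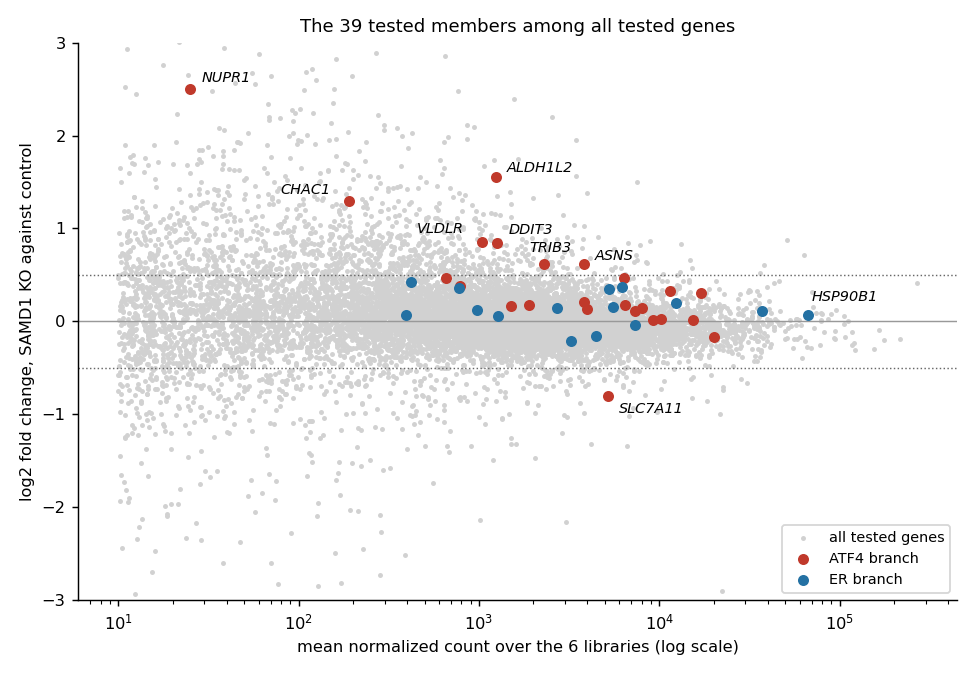
Each point is a gene, with the mean normalized count over the 6 libraries on a log axis and the limma log2 fold change (SAMD1 KO over control) on the vertical axis. Grey points are all tested genes (19 lie beyond the axis limit of 3), red the 24 tested ATF4-branch genes, blue the 15 ER-branch genes, and dotted lines mark a log2 fold change of 0.5 in each direction. Most members sit a little above 0 and inside the dotted lines, NUPR1, ALDH1L2 and CHAC1 lie highest, and SLC7A11 is the lowest member.

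The 3 clones did not move alike. Clone 1 stayed nearest to the controls or below them, and clones 2 and 3 carried most of the higher values. Relative to the control mean, the median log2 difference of the ATF4 branch was 0.045 in clone 1, 0.36 in clone 2 and 0.49 in clone 3. In the ER branch it was −0.048, 0.13 and 0.31, and over all tested genes it was between −0.0036 and 0.00099 in every clone. In clone 1, 10 of 24 ATF4-branch genes (41.7%) lay above every control library, near the 39.3% of all genes. In clone 2 it was 18 (75%), against 41.0%, and in clone 3 it was 22 (91.7%), against 39.6%. For the ER branch the counts were 5, 10 and 13 of 15 (33.3%, 66.7% and 86.7%). Below every control library lay 8, 4 and 2 ATF4-branch genes and 8, 5 and 0 ER-branch genes in clones 1, 2 and 3, where all genes gave 39.8%, 41.3% and 40%. Clone 1 had the lowest value of the clones for 29 of the 39 members, against 33.7% of all genes, and clone 3 for 0, against 33.0%. Clone 3 had the highest value for 30 members, among them 14 of the 15 ER-branch genes, against 32.8% of all genes. The members answer to shared regulators, so these counts are not independent observations.

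**Figure D2:**
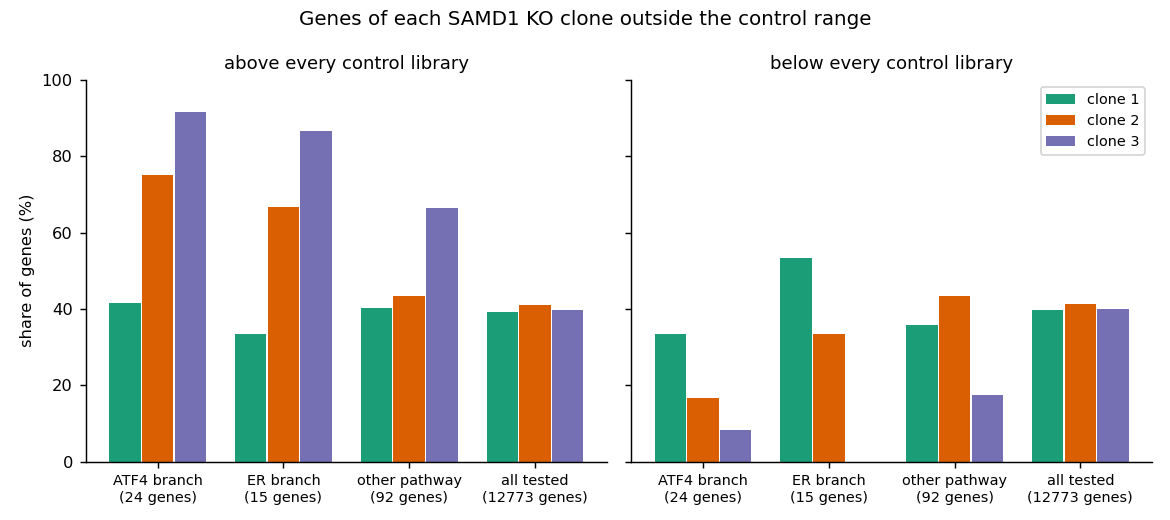
Bars give the share (%) of genes in each KO clone that lie above every control library (left) or below every control library (right), for the ATF4 branch, the ER branch, 92 other genes of these pathways and all 12773 tested genes. For all genes the 3 clones are near 40% on both sides, while in both branches the left bars climb from clone 1 (41.7% and 33.3%) to clone 3 (91.7% and 86.7%).

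**Figure D3:**
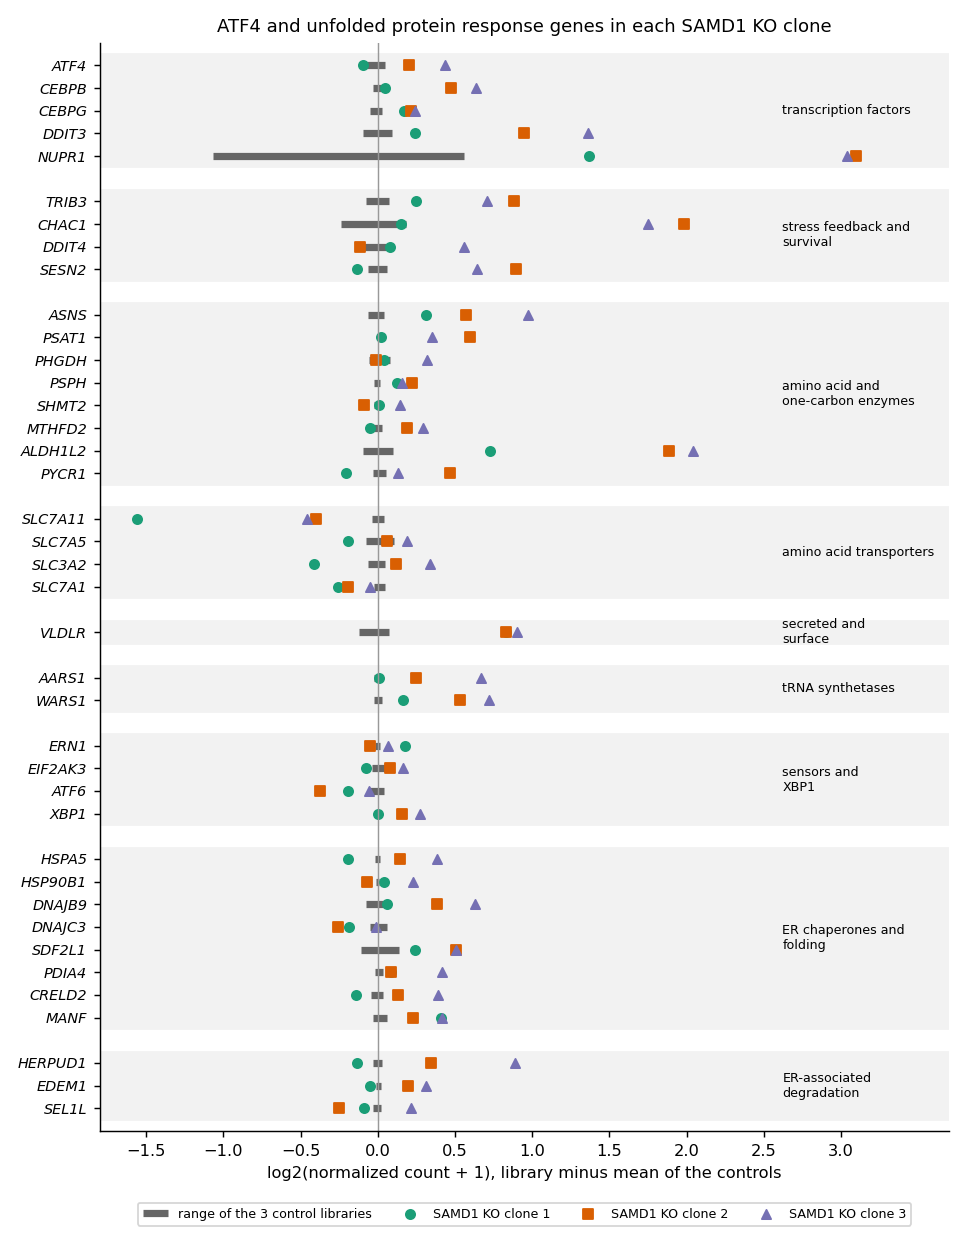
Each row is 1 of the 39 tested members, grouped by role, with the log2(normalized count + 1) of each KO clone minus the control mean on the horizontal axis and a grey bar for the range of the 3 control libraries. Clone 1 (circles) is left of the other clones in most rows, with SLC7A11 farthest to the left, and for VLDLR the 3 clones nearly coincide to the right of the bar, where clone 1 lies under the marker of clone 2.

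Among the transcription factors, *NUPR1* passed both rules and *CEBPG* the adjusted p alone, while *ATF4* itself did not pass. *ATF4* (chromosome 22, 39519695 to 39522683) had 6228, 6191 and 5692 normalized counts in the controls and 5631, 6929.7 and 8144 in clones 1, 2 and 3. Clone 1 was the lowest of all 6 libraries and clones 2 and 3 the highest, so the groups overlapped. The means were 6037 ± 300 and 6902 ± 1256 (SD, n = 3 each), and the log2 fold change was 0.18 (standard error, SE, 0.13; limma adjusted p = 0.384). Without clone 1 the log2 fold change was 0.32 and without clone 3 it was 0.050 (limma adjusted p = 0.0413 and 0.752).
*DDIT3* encodes CHOP, the pro-apoptotic partner of ATF4. It had 877, 929 and 819 normalized counts in the controls and 1032, 1686 and 2243 in the clones. All clones lay above all controls, clone 1 barely and clone 3 by far. The log2 fold change of 0.85 (SE 0.25, limma adjusted p = 0.0683) missed the p-value of the cut-off. It passed the cut-off in edgeR and in DESeq2 (adjusted p = 0.0546 and 0.00155), and without clone 1 it was 1.15 (limma adjusted p = 0.00304).
*CEBPG* encodes a C/EBP partner that dimerizes with ATF4. Its values were 3584, 3415 and 3597 in the controls and 3975, 4093 and 4179.8 in the clones. The clones lay close together and above all controls, a log2 fold change of 0.21 (SE 0.05, limma adjusted p = 0.0376). *CEBPB*, another C/EBP factor, had 662, 703 and 664 in the controls and 699, 942 and 1049.7 in the clones. Clone 1 fell among the controls, and the log2 fold change of 0.39 did not pass (limma adjusted p = 0.129). It was 0.55 without clone 1 and 0.26 without clone 3 (limma adjusted p = 0.00697 and 0.222).
*NUPR1* (chromosome 16, 28532708 to 28539008) encodes a small stress-induced chromatin protein of the pancreas and other tissues. It had 2, 9 and 8 reads in the controls and 17, 67 and 62 in the clones, or 2.29, 8.81 and 9.16 against 16.8, 57.9 and 55.8 normalized counts. Clone 1 stood between the controls and the other clones. Its log2 fold change was 2.50 (SE 0.63, limma adjusted p = 0.0413). It passed the filter on low values only through the KO clones, so it had to be higher to be tested at all. Leaving out 1 library in turn kept this call 3 of 6 times.

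Of the 4 genes of stress feedback and survival, *TRIB3* rose and the others did not pass in limma. *TRIB3* (chromosome 20, 362835 to 397559) encodes a pseudokinase that binds and restrains ATF4 and CHOP. It had 1790.1, 1876 and 1698 normalized counts in the controls and 2124, 3298 and 2921 in the clones, with all clones above all controls. Its log2 fold change was 0.61 (SE 0.15, limma adjusted p = 0.0397). The 20 tested genes on each side of it on chromosome 20 had median log2 differences of 0.33, 0.28 and −0.034 in clones 1, 2 and 3. With such local shifts subtracted, its log2 fold change was 0.42 and the call was lost (limma adjusted p = 0.159). Leaving out 1 library in turn kept this call only without clone 1.
*CHAC1* encodes an enzyme that breaks down glutathione and is among the sharpest markers of ATF4 output. It had 84.6, 104 and 113 normalized counts in the controls and 111, 398 and 338 in the clones. Clones 2 and 3 were at 3.96 and 3.36 times the control mean, while clone 1 lay within the control range. The log2 fold change was 1.29 (SE 0.45, limma adjusted p = 0.106). It was called in DESeq2 (log2 fold change 1.49, adjusted p = 0.00321) and not in edgeR (adjusted p = 0.0667). Without clone 1 the log2 fold change was 1.87 and without clone 3 it was 1.07 (limma adjusted p = 0.00144 and 0.197).
*SESN2* encodes sestrin 2, which restrains mTORC1 in amino acid shortage. It had the same order, with 539, 559.7 and 515 in the controls and 490.5, 1000.5 and 839 in the clones, so that clone 1 was the lowest library and the other clones the highest (log2 fold change 0.47, limma adjusted p = 0.241). *DDIT4*, another mTORC1 inhibitor, had 1663, 1880.5 and 1767 in the controls and 1868, 1630.3 and 2601 in the clones. Only clone 3 stood above the controls and clone 2 was the lowest library (log2 fold change 0.17, limma adjusted p = 0.515).

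**Figure D4:**
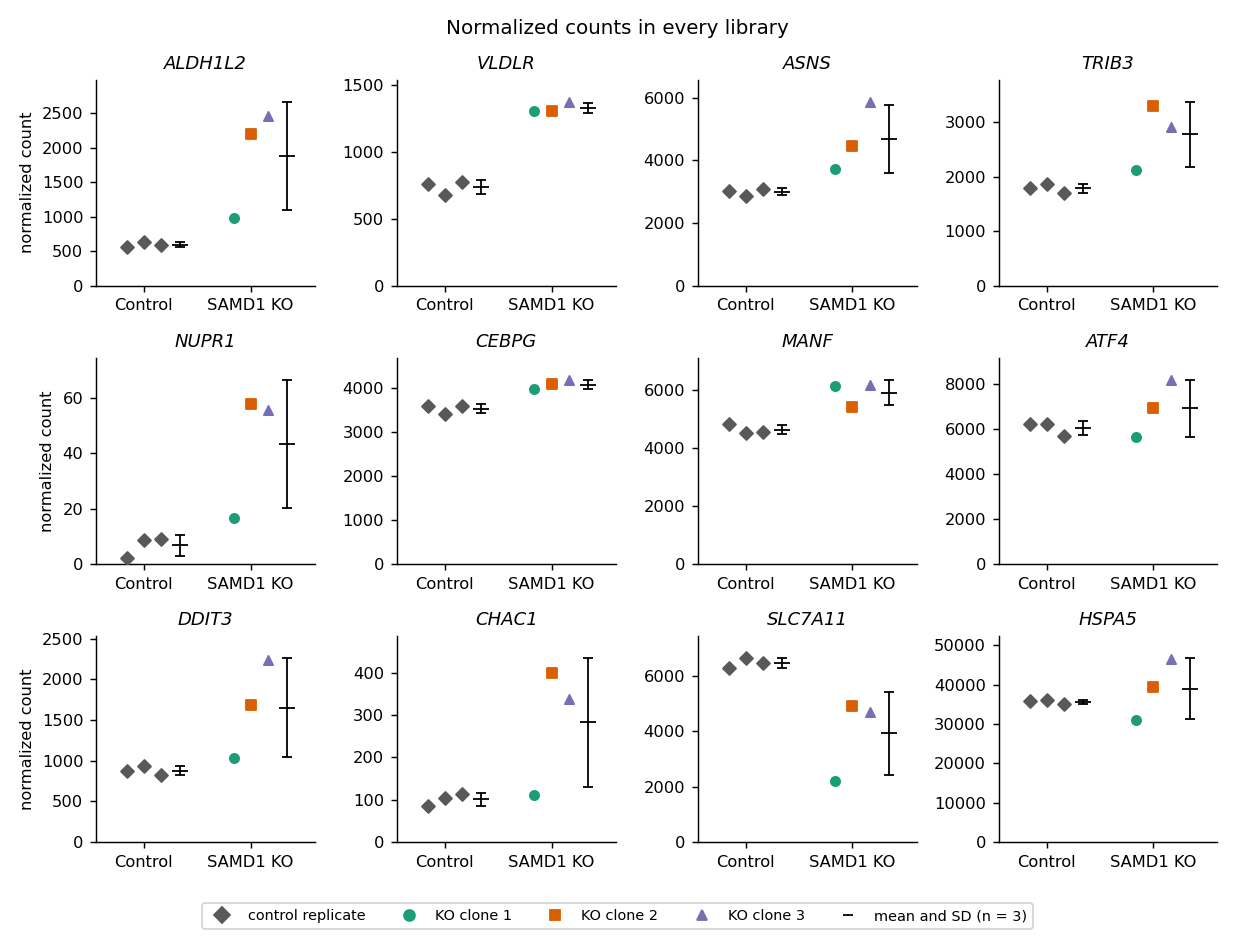
Normalized counts of 12 members in every library on linear axes that start at 0, with control replicates as diamonds, KO clones 1, 2 and 3 as a circle, a square and a triangle, and a cross bar for the mean and SD (n = 3). VLDLR and CEBPG have clones close together above the controls, ALDH1L2, NUPR1, DDIT3 and CHAC1 have clone 1 nearest the controls, and SLC7A11 has clone 1 farthest below them.

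The enzymes that make amino acids and one-carbon units held the largest tested change outside *NUPR1*. Of 8 tested, *ALDH1L2* and *ASNS* rose, and the other 6 did not pass although all 8 estimates were above 0 (48.8% of all genes). *ALDH1L2* (chromosome 12, 105019784 to 105107643) encodes the mitochondrial enzyme that oxidizes 10-formyltetrahydrofolate and yields NADPH. It had 557, 637 and 594 normalized counts in the controls and 987, 2199 and 2451 in the clones. Every clone lay above every control, clone 1 at 1.66 times the control mean and clones 2 and 3 at 3.69 and 4.11 times. The means were 596 ± 39.97 and 1879 ± 783 (SD, n = 3 each), which gave a log2 fold change of 1.55 (SE 0.31, limma adjusted p = 0.0207), and the call was kept in each of the 6 fits that left out 1 library.
*ASNS* (chromosome 7, 97851677 to 97872542) encodes asparagine synthetase, the textbook target of the C/EBP-ATF element shown above. It had 3036, 2866 and 3078 normalized counts in the controls and 3714, 4450.2 and 5867 in the clones. All clones lay above all controls, with clone 3 the highest (log2 fold change 0.62, SE 0.15, limma adjusted p = 0.0383). The call held without clone 1 and without clone 2, and was lost without clone 3 (log2 fold change 0.44, adjusted p = 0.0205) and without any 1 control.
The serine pathway was uneven. *PSAT1*, its aminotransferase, had 10154, 10145 and 10261 in the controls and 10326, 15375 and 13019 in the clones. No clone overlapped the controls, yet clone 1 lay just above them (log2 fold change 0.32, limma adjusted p = 0.151). *PSPH*, the phosphatase of the last step, had 1389 to 1427 in the controls and 1537 to 1644 in the clones, again without overlap (log2 fold change 0.17, limma adjusted p = 0.104). Its neighbours on chromosome 7 had median log2 differences of −0.037, −0.13 and −0.14 in clones 1, 2 and 3. With these subtracted its log2 fold change was 0.27 (limma adjusted p = 0.0292). *PHGDH*, the first enzyme, had 6750.2 to 7388 in the controls and 6948 to 8738 in the clones, so the groups overlapped (log2 fold change 0.12, limma adjusted p = 0.439).
The groups also overlapped for the mitochondrial folate enzymes. *SHMT2* had 9978 to 10358 in the controls and 9543 to 11228 in the clones (log2 fold change 0.022, limma adjusted p = 0.861). *MTHFD2* had 7448 to 7764 in the controls and 7357, 8680.1 and 9324 in the clones, with clone 1 the lowest of all 6 libraries (log2 fold change 0.15, limma adjusted p = 0.309). *PYCR1*, which makes proline, had 3687 to 3911 in the controls and 3276, 5221 and 4122 in the clones. Clone 1 was below the controls and the others above them (log2 fold change 0.13, limma adjusted p = 0.608).

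The amino acid transporters were the only role of the ATF4 branch whose median was below 0, at −0.077 over 4 genes, and none of them passed. *SLC7A11* encodes the cystine importer xCT, which feeds glutathione synthesis. It had 6289, 6644 and 6466 normalized counts in the controls and 2193, 4905 and 4696 in the clones. All clones lay below all controls, clone 1 at 0.339 of the control mean and clones 2 and 3 at 0.759 and 0.726. The log2 fold change was −0.81 (SE 0.28, limma adjusted p = 0.109). Without clone 1 it was −0.43 (limma adjusted p = 0.00345). Without clone 2 it was −1.01 and without clone 3 it was −0.98 (limma adjusted p = 0.0646 and 0.0771). The limma p before adjustment was 0.0101 without clone 2, just above the 0.01 of the cut-off.
*SLC7A1* encodes the cationic amino acid transporter CAT1. Its clones (17789.9, 18609 and 20529) also lay below its controls (20905 to 21992), by less (log2 fold change −0.17, limma adjusted p = 0.146). *SLC3A2* is the heavy chain that partners SLC7A5 and SLC7A11. It had 9219.5, 9439.8 and 8731 in the controls and 6857, 9884 and 11534 in the clones. Clone 1 was the lowest of all libraries and clones 2 and 3 the highest, which left a log2 fold change of 0.014 (limma adjusted p = 0.967). *SLC7A5*, the large neutral amino acid transporter LAT1, had 14506 to 16430 in the controls and 13342, 15948 and 17448 in the clones, again with clone 1 lowest (log2 fold change 0.019, limma adjusted p = 0.925).

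*VLDLR*, the very-low-density lipoprotein receptor (chromosome 9, 2621182 to 2660056), was the member with the smallest limma p. It had 761, 679 and 777 normalized counts in the controls and 1310.2, 1309 and 1375 in the clones. The 3 clones were nearly equal and none came near a control. The means were 739 ± 52.4 and 1331 ± 38.0 (SD, n = 3 each), which gave a log2 fold change of 0.85 (SE 0.08, limma adjusted p = 0.00108). It had an adjusted p below 0.05 in each of the 6 fits that left out 1 library, which held for no other member. *STC2*, a secreted stanniocalcin, had 3, 3 and 3 reads in the controls and 2, 11 and 8 in the clones and was too low to test.
The tRNA synthetases *AARS1* and *WARS1*, which charge alanine and tryptophan tRNA, did not pass in limma. *WARS1* had 5336, 5234 and 5426 in the controls and 5964, 7699 and 8792 in the clones. All clones lay above all controls, in the order of clones seen for *DDIT3* (log2 fold change 0.47, SE 0.13, limma adjusted p = 0.0553). For *WARS1* the adjusted p was 0.0488 in edgeR and 0.00403 in DESeq2, and it was called with local shifts of neighbours subtracted (log2 fold change 0.50, limma adjusted p = 0.0291). *AARS1* had 15117, 15251 and 14845 in the controls and 15157, 17892 and 23940.0 in the clones, with clone 1 inside the control range (log2 fold change 0.31, limma adjusted p = 0.218). Its neighbours on chromosome 16 had median log2 differences of −0.24, −0.24 and 0.051 in clones 1, 2 and 3, and with these subtracted its log2 fold change was 0.45 (limma adjusted p = 0.0117).

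In the ER branch 0 of 15 genes reached the cut-off in the limma fit, and also 0 by edgeR and by DESeq2. In the limma fit 5.77% of all genes were called higher and 2.08% lower, so 0 of 15 is near those shares. An unadjusted p below 0.05 was found for 4 of the 15 (29.6% of all genes). An adjusted p below 0.05 was found for 1, *MANF* (13.0% of all genes). The sensors did not pass. *ERN1* had 389, 379.6 and 387 normalized counts in the controls and 435, 372 and 404 in the clones (log2 fold change 0.065, limma adjusted p = 0.686). *EIF2AK3* had 1218, 1234 and 1305 in the controls and 1186, 1324 and 1402 in the clones (log2 fold change 0.055, limma adjusted p = 0.684). In both, clones lay on either side of the controls. *ATF6* had 3588, 3335 and 3535 in the controls and 3052, 2686 and 3354 in the clones. Clones 1 and 2 were below every control and clone 3 was not (log2 fold change −0.21, limma adjusted p = 0.158, and −0.28 with adjusted p = 0.0452 without clone 3). *XBP1* had 2583, 2542 and 2565 in the controls and 2569, 2861 and 3100.4 in the clones, with clone 1 level with the controls (log2 fold change 0.15, limma adjusted p = 0.242).

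Among the 8 ER chaperones and folding factors clone 3 was the highest clone for every gene. *HSPA5* encodes BiP, the central ER chaperone, and carries the ER stress element shown above. It had 35739, 35985 and 35093 normalized counts in the controls and 31133, 39387 and 46535 in the clones. Clone 1 was the lowest library and clones 2 and 3 the highest, in the same order as for *ATF4* and *SLC3A2*. Its means of 35606 ± 461 and 39019 ± 7708 (SD, n = 3 each) gave a log2 fold change of 0.11 (limma adjusted p = 0.619). *HSP90B1*, the ER paralog of HSP90, had 64600.1 to 65230 in the controls and 66889, 61811 and 76052 in the clones (log2 fold change 0.065, limma adjusted p = 0.655).
*MANF* encodes a secreted ER stress factor. It had 4829, 4534 and 4562 in the controls and 6149.5, 5425 and 6197 in the clones. Here clone 1 was level with clone 3 and all clones lay above all controls (log2 fold change 0.35, SE 0.07, limma adjusted p = 0.0169). Its neighbours on chromosome 3 had median log2 differences of 0.28, 0.35 and −0.030 in clones 1, 2 and 3. With such shifts subtracted its log2 fold change was 0.15 (limma adjusted p = 0.445).
*SDF2L1*, a cofactor of BiP, had 351, 393 and 332 in the controls and 423, 509 and 510.0 in the clones, without overlap (log2 fold change 0.42, limma adjusted p = 0.0556). *DNAJB9*, a BiP co-chaperone that restrains IRE1, had 714, 674 and 641 in the controls and 704, 883 and 1045 in the clones, where clone 1 fell among the controls (log2 fold change 0.36, limma adjusted p = 0.143). *PDIA4*, a disulfide isomerase, had no overlap but its clones 1 and 2 were only 1.06 times the control mean, against 1.33 times in clone 3 (log2 fold change 0.19, limma adjusted p = 0.216). *CRELD2* followed the order of *HSPA5*, with 897 to 944 in the controls and 839, 1009 and 1209 in the clones (log2 fold change 0.13, limma adjusted p = 0.557). *DNAJC3*, the co-chaperone P58IPK, had 4521 to 4890.0 in the controls and 4124, 3919 and 4656 in the clones, where clones 1 and 2 lay below the controls (log2 fold change −0.15, limma adjusted p = 0.221).

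Of the 3 degradation genes, *HERPUD1* had the widest spread among clones. It encodes a membrane adaptor of the ubiquitin ligase that clears misfolded ER proteins, and its promoter holds the C/EBP-ATF motif. It had 5302, 5375 and 5158 in the controls and 4799.8, 6697 and 9776 in the clones. Clone 1 was the lowest library and clone 3 was at 1.85 times the control mean (log2 fold change 0.37, limma adjusted p = 0.319). Without clone 1 it was 0.62 and without clone 3 it was 0.10 (limma adjusted p = 0.0319 and 0.628). *EDEM1*, which hands misfolded glycoproteins to degradation, had 5184 to 5295 in the controls and 5058, 5979 and 6487 in the clones. Its log2 fold change was 0.15 (limma adjusted p = 0.300), beside median differences of its neighbours on chromosome 3 of 0.30, 0.33 and 0.083 in clones 1, 2 and 3. *SEL1L*, the scaffold of the ligase, had 7262 to 7529 in the controls and 6981, 6231 and 8621 in the clones (log2 fold change −0.042, limma adjusted p = 0.834).

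The spread among clones itself was wider in the ATF4 branch. The median SD of log2 values among the clones was 0.32 over its 24 tested genes, 0.16 over the ER branch and 0.15 over all genes. Among the control libraries it was 0.056, 0.030 and 0.059. With clone 1 left out, 13 members were called higher (6.75% of all genes were) and 22 had an adjusted p below 0.05 (20.1% of all genes), *SLC7A11* among them on the lower side. Those called then included *CEBPB*, *DDIT3*, *CHAC1*, *SESN2*, *WARS1*, *DNAJB9*, *SDF2L1* and *HERPUD1*. With clone 3 left out, 2 members were called (5.98% of all genes), and 7 had an adjusted p below 0.05 (16.8% of all genes), among them *SLC7A1*, *ATF6* and *DNAJC3* on the lower side.

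Other genes of the pathways were grouped in 5 lists of 96 genes in all. Of the 92 tested, 6 (6.52%) were called higher, near the 5.77% of all genes, and 0 lower, against 2.08%. The counts were the same by edgeR and by DESeq2. At an unadjusted limma p below 0.05, 20 passed (29.6% of all genes), 3 of them lower. The median log2 fold change of the 92 was 0.042. The 11 genes of the eIF2alpha kinases, their phosphatase and eIF2B gave 0 calls by limma, edgeR and DESeq2. By limma 5.77% of all genes were called higher and 2.08% lower. Of the 11, 1 had an unadjusted limma p below 0.05 (29.6% of all genes), and their median was −0.048. The kinases *EIF2AK1*, *EIF2AK2* and *EIF2AK4* had log2 fold changes of 0.12, −0.073 and −0.048 (limma adjusted p = 0.173, 0.445 and 0.557). *PPP1R15A*, the stress-induced phosphatase subunit GADD34, had 2444, 2453 and 2297 normalized counts in the controls and 2294, 2618 and 3876 in the clones, with clone 3 far above the rest (log2 fold change 0.25, limma adjusted p = 0.377).
Among 32 tested further ATF4 programme genes the median was 0.18, and 25 estimates (78.1%) were above 0, against 48.8% of all genes. Clone 1 was the lowest clone for 22 (68.8%), against 33.7% of all genes. Here *GDF15*, *KLHL24* and *CARS1* were called higher (9.4%, against 5.77% of all genes). *KLHL24*, *CARS1*, *SLC1A4* and *ATF3* had an adjusted p below 0.05 (12.5%, against 13.0% of all genes). *ATF3*, a stress-induced partner of ATF4, had 377 to 432 in the controls and 526 to 567 in the clones (log2 fold change 0.42, limma adjusted p = 0.026). *KLHL24*, a ubiquitin ligase adaptor, had 2263 to 2454 in the controls and 3376 to 3720.2 in the clones (log2 fold change 0.58, limma adjusted p = 0.00213). Clones of both lay close together. *GDF15*, a secreted stress hormone, had 53.8, 66.5 and 59.6 in the controls and 76.1, 165 and 144 in the clones, in the clone order of *CHAC1* (log2 fold change 1.02, limma adjusted p = 0.0633). *SLC1A4*, a neutral amino acid transporter, had 1102, 1049 and 1109 in the controls and 1452, 1469 and 1458 in the clones, nearly equal in the 3 clones (log2 fold change 0.43, limma adjusted p = 0.005). *CARS1*, the cysteine tRNA synthetase, was higher in every clone (log2 fold change 0.63, limma adjusted p = 0.00266), beside neighbours at 0.41, 0.21 and 0.10 in clones 1, 2 and 3, and with these subtracted its log2 fold change was 0.40 and the call was lost (limma adjusted p = 0.0203).
The 27 further ER folding and secretion genes gave 0 calls by all 3 tools (3 at an unadjusted limma p below 0.05) and a median of −0.0057. The 13 further degradation genes gave 0 calls by all 3 (2 at an unadjusted limma p below 0.05) and a median of 0.011. By limma 5.77% of all genes were called higher, 2.08% lower, and 29.6% had an unadjusted p below 0.05. The only adjusted p-values below 0.05 in these lists were those of *SRPRB* (log2 fold change −0.26, limma adjusted p = 0.0301) and *EDEM2* (0.34, limma adjusted p = 0.0423). Of 9 tested further stress transducers, 3 (33.3%) were called higher, against 5.77% of all genes. *CREB3L2* passed the adjusted p alone (log2 fold change 0.32, limma adjusted p = 0.03). *MAP3K5*, the kinase ASK1 that acts with IRE1, had 77.8, 73.4 and 57.3 in the controls and 268, 148 and 250.1 in the clones (log2 fold change 1.63, limma adjusted p = 0.00785). *CREB3L1*, a membrane-bound factor cut like ATF6, had 886, 1012 and 932 in the controls and 1653, 1504 and 1322 in the clones (log2 fold change 0.66, limma adjusted p = 0.00683). In both, clone 1 was the highest clone, unlike most of the ATF4 branch. *MBTPS2*, the protease that cuts ATF6, was called too (log2 fold change 0.57, limma adjusted p = 0.00165) and lies on chromosome X among neighbours at 0.39, 0.29 and 0.40 in clones 1, 2 and 3. With these subtracted its log2 fold change was 0.20 and the call was lost (limma adjusted p = 0.0739).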

How the data were processed

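RNA-seq reads of 3 control and 3 *SAMD1* KO libraries were aligned by the authors with RNA-STAR to GenCode 43. According to the submitters' processing notes, featureCounts, DESeq2 and hg38 were used. The deposited signal is a DESeq2-normalized count per gene. Divided by the smallest step of its library, 100% of the values came out whole within 0.01 of a read, and these reads were used for edgeR and DESeq2. A deposited table of the authors' own comparison (mean, log2 fold change, standard error, statistic, p-value and adjusted p-value) was not used. No library column was left out (0 columns). The kit was stranded, and the strand setting of the counting is not given in the sources used here. Reads are uncertain for 10 members with pseudogene copies (such as *ATF4*, *ASNS*, *HSPA5* and *MTHFD2*), and where coding exons overlap, as for *DDIT3* with *MARS1* and *MBD6*, and *ALDH1L2* with *WASHC4*.

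The main test was limma 3.58.1 (trend, two-sided; R 4.3.3) on the log2 of the normalized count plus 1, for 12773 genes that averaged at least 10, with the groups control and *SAMD1* KO only. Fold changes on this scale understate those of low genes. P-values were adjusted over all these genes (Benjamini-Hochberg). An exact permutation test of 3 against 3 cannot give a p below 0.1. With 35589477 to 45172216 reads, the number of libraries limits the precision for all but low genes. Positions are from GENCODE 44 on GRCh38. The members, gene lists and tests were chosen with earlier results of these data known, and all 40 members are named with those of the other lists that passed a rule, and also the eIF2alpha kinases and *PPP1R15A*, chosen after their values were seen. The fits were tested on simulated data with the same spread in both groups. The clones spread wider than the controls here (median SD over all genes 0.15 against 0.059), so that test does not cover this difference. The alternatives were pseudocounts of 0.1 and 10, no filter or an average of 50 or more, scaling to the 75th percentile, edgeR 4.0.16, DESeq2 1.42.0, the replicate number as a block, subtraction of the median shift of 20 neighbours on each side, an adjusted p in the cut-off and leaving out each library. Python 3.11.15 with pandas 2.3.3 was used elsewhere.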

Additional observations from a re-analysis of the deposited data

How the results depend on the processing

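The medians of both branches stayed above 0 and the count of members called lower stayed at 0 under each alternative. Members called higher were 5 in the main comparison (5.77% of all genes). They were 4 to 7 under other scales, filters, tools and scalings (4.8% to 6.5%), and 2 to 13 with 1 library left out (4.45% to 6.75%). *VLDLR* and *ALDH1L2* were called in each of these fits. Members with an adjusted p below 0.05 went from 7 (13.0% of all genes) to 11 with DESeq2 (18.0%) and to between 1 and 22 with 1 library left out. With 1 control left out, 1 remained (*VLDLR*; 3.98% to 4.44% of all genes), and without clone 1 there were 22 (20.1%). Over 584 pairs of a member and an alternative, 16 changed sign, 13 lost and 16 gained a call, and 28 of the 39 members never changed sign. With local shifts of neighbours subtracted, the log2 fold change became −0.0040 for *SHMT2*, −0.037 for *EIF2AK3* and −0.083 for *EDEM1*, the cause of which is that subtraction. Leaving out 1 library in turn gave log2 fold changes of −0.019 to 0.32 for *DDIT4*, −0.040 to 0.077 for *SHMT2*, −0.038 to 0.30 for *PYCR1*, −0.067 to 0.13 for *SLC7A5*, −0.15 to 0.23 for *SLC3A2*, −0.024 to 0.27 for *HSPA5*, −0.016 to 0.13 for *HSP90B1*, −0.0056 to 0.26 for *CRELD2* and −0.17 to 0.064 for *SEL1L*. Deviations of same-numbered control and KO libraries had correlations of 0.039, 0.13 and 0.032, and those of differently numbered ones −0.074 to 0.036. With 3 libraries a group this cannot show whether the numbers pair them. With the replicate number as a block, 7 members were called higher (5.68% of all genes), with *DDIT3* and *CHAC1* gained, and 6 had an adjusted p below 0.05 (9.53%). With an adjusted p in the cut-off, the same 5 members were higher as in the main comparison and 0 lower. The 5 include *NUPR1*, which had to be higher to be tested. At any fold change 13.0% of all genes had such an adjusted p. The share that also passed the fold change was not counted, so the 5 cannot be set against it. Low read counts limit *NUPR1* and *STC2*, and 3 libraries a group limit the rest.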
